A study of Mus musculus with 8 samples.

Results

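The genes described here are the 95 nuclear genes of mouse oxidative phosphorylation that could be found by symbol, out of 32227 genes in the count tables. They were chosen by name alone, as symbols that begin with Nduf, Uqcr, Cox4 to Cox8 or Atp5 and the subunit genes *Sdha*, *Sdhb*, *Sdhc* and *Sdhd*, after 1 pseudogene symbol was dropped. By complex, they were 46 genes of complex I (7 core subunits, 31 accessory subunits and 8 assembly factors), 4 of complex II, 8 of complex III, 20 of complex IV and 17 of complex V. *Ndufa4*, which carries a complex I name, was placed in complex IV, and 8 of the 20 complex IV genes are tissue-restricted copies of a more widely used subunit. The 13 protein genes of the mitochondrial genome, whose symbols begin with mt-, are given beside them.

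The cells came from the brains of male C57Bl/6J mice, 5 to 6 months old by the labels, that had been injected once into the peritoneum with sterile saline or with 15000000 EU/kg of LPS, and were taken 24 h later. LPS, a lipopolysaccharide of the bacterial outer membrane, is a standard trigger of systemic inflammation. The study's methods give a younger age range than the labels. During enzymatic dissociation the tissue was held either with DMSO, the vehicle, or with a mix of inhibitors of transcription and translation, and cells bearing CD45, the surface protein of leukocytes, were then enriched on magnetic columns without perfusion of the brain. The paper counts choroid plexus, endothelial and leptomeningeal cells and pericytes among the cells without CD45 that were still captured. Each of the 4 combinations of saline or LPS with DMSO or inhibitors had 2 libraries of 1 mouse each, and replicate numbers 1 and 2 mark the capture day, so that the p-values of LPS against saline measure the spread between mice and days together.

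Oxidative phosphorylation is the last stage of respiration. Complexes I and II take electrons from NADH and succinate, complex III passes them to cytochrome c, complex IV hands them to oxygen, and complex V, the ATP synthase, makes ATP from the proton gradient that complexes I, III and IV build. The complexes are mosaics, because a few core subunits are encoded in mitochondrial DNA and the rest in the nucleus, and complex II is wholly nuclear. Macrophages given LPS in culture are known to turn to glycolysis for ATP, whereas the epithelium of the choroid plexus is known for a high density of mitochondria.

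Promoters of these genes are known to be bound by NRF1, GABP and YY1, regulators of respiratory chain genes. RefSeq promoter windows (build GRCm38.p6) were at hand for 77 of the 95 genes, and the 250 bases before each start were searched on both strands. The NRF1 motif, searched as GCGCA, then any base, then GCGC, was found in 14 of the 77 windows (18.2%, against 4.23% of the windows of all genes), the GABP motif CCGGAAG in 14 (18.2% against 7.83%), and the YY1 motif AAGATGGC in 1 (1.3% against 1.83%). Matches of different motifs overlapped in 0 windows, and 25 windows (32.5%, against 12.8% of all) held at least 1 of them. A match is only a run of letters, and binding was not measured. The windows of 6 genes are shown because their genes were called alike or apart across cell classes in the comparisons that follow. *Ndufa11*, *Ndufaf4*, *Ndufs3*, *Uqcr10* and *Cox5b* were higher after LPS in 5 or more classes, whereas *Cox7a2l* was higher in none and lower in 5. Of the 5 genes that were higher, 3 had a match and *Uqcr10* and *Cox5b* had none, and the window of *Cox7a2l* held none either. *Uqcrq*, higher in the most classes, had no window at hand. Capitals mark the motif match, and sequences run 5′ to 3′ toward the start.
*Ndufa11* (NRF1 motif, chr17:56717512-56717761, plus strand): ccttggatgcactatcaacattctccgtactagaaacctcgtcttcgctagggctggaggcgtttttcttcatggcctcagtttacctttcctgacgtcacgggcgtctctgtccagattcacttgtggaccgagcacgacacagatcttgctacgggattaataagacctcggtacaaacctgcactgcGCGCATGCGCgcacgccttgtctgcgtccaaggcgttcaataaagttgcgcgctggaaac
*Ndufaf4* (NRF1 motif, chr4:24897833-24898082, plus strand): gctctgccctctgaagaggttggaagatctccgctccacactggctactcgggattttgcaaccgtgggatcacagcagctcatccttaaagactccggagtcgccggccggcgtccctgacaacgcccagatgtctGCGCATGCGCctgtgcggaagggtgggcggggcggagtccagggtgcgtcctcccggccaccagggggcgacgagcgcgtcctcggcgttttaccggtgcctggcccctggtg
*Ndufs3* (GABP motif, chr2:90904722-90904971, minus strand): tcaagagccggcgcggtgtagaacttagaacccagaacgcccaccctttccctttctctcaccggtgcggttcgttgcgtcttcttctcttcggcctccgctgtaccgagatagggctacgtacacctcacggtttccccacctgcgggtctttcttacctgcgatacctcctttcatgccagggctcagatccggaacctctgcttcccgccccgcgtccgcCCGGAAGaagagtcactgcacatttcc
*Uqcr10* (no match, chr11:4704345-4704594, minus strand): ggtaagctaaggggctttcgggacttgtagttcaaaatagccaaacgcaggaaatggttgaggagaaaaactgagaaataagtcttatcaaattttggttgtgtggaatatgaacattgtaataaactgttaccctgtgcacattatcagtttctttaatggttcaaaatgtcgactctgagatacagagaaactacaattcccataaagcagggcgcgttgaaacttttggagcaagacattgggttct
*Cox5b* (no match, chr1:36691237-36691486, plus strand): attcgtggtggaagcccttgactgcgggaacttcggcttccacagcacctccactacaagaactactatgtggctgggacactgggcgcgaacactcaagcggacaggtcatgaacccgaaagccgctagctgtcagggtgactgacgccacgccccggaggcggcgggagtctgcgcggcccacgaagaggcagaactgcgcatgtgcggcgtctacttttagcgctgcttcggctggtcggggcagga
*Cox7a2l* (no match, chr17:83514334-83514583, minus strand): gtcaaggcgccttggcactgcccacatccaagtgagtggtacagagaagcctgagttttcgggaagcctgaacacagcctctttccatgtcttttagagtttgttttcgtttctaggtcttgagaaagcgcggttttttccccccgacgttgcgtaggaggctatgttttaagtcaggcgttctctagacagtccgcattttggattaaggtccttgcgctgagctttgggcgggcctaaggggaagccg

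The libraries held 90352359 to 141182123 unique molecules (UMIs) each, and 119053 cells passed the limits on UMIs, genes and mitochondrial share. Cells were put into classes by sets of marker genes, so that each class name stands for cells that carry those markers ("microglia" for microglia-like, and so on). Between 91.5% and 95% of the cells of the saline libraries and between 79.1% and 82.0% of those of the LPS libraries could be placed. The medians per cell were 2207 to 3161 UMIs in saline and 4149 to 4762 in LPS libraries, and 125 barcodes occurred in more than 1 library. Cells placed as monocytes in the saline libraries were led by *Elane*, *Mpo*, *Prtn3* and *Ctsg*, genes of granule proteins of myeloid progenitors. Levels are UMIs of a gene or group per 1000000 UMIs of the class (CPM) or percent of them, and values are listed as DMSO days 1 and 2, then inhibitors days 1 and 2, unless a range is given.

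In saline, oxidative phosphorylation genes took the largest share of UMIs in cells of the blood vessel wall and of the choroid plexus and the smallest in neutrophils and microglia. Pericytes and smooth muscle cells, which wrap the vessels, formed a joint class, named pericytes for short in what follows. In it the 95 genes summed to 3.96% of UMIs in the DMSO library of day 1 and to 4.44% and 5.04% in the inhibitor libraries. The DMSO library of day 2 had too few cells. In choroid plexus cells they summed to 4.29%, 4.18%, 4.90% and 4.24%. These classes overlapped each other and lay above all others. Leptomeningeal fibroblasts, with enough cells in only 2 saline libraries (3.50% and 2.98%) and not tested, overlapped the natural killer cells (NKs) that followed at 2.69%, 3.40%, 3.01% and 3.20%, and endothelial cells, the vessel lining, at 2.30%, 2.65%, 2.19% and 2.65%, without overlap. From B-cells through T-cells, ependymal cells, monocytes, dendritic cells and macrophages to microglia, each class overlapped the next. Microglia stood at 1.23%, 1.46%, 1.32% and 1.55%. Neutrophils, which rely mainly on glycolysis, were lowest at 1.03%, 1.29%, 0.87% and 1.20%.

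**Figure D1:**
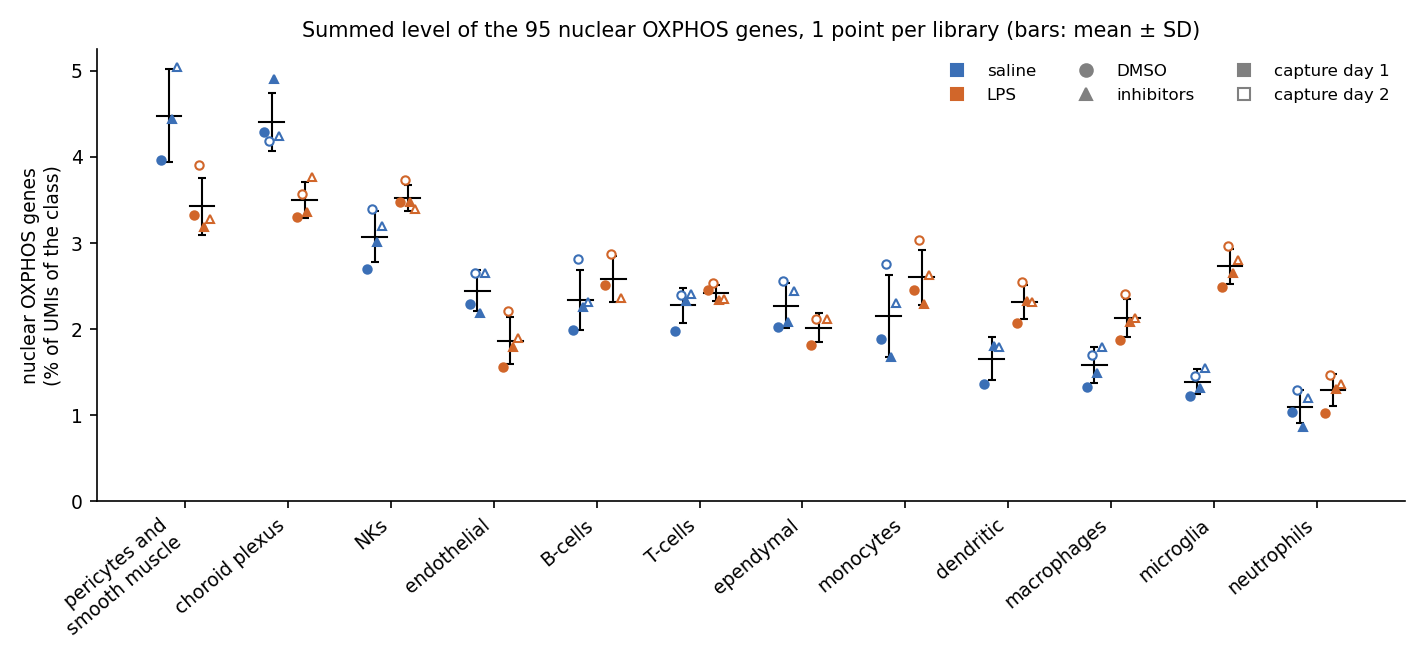
Summed level of the 95 nuclear oxidative phosphorylation genes (y axis, percent of the UMIs of the class) in each cell class (x axis), 1 point per library, with bars for mean and SD of the saline and LPS libraries. The 4 LPS libraries of microglia, at 2.49% to 2.97%, sit above the 4 saline libraries at 1.23% to 1.55%, whereas in choroid plexus cells the LPS points lie below the saline points.

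LPS parted the classes. In microglia, the resident macrophages of the brain, the share of UMIs from the 95 genes was 1.39% ± 0.143 (SD, n = 4) in saline and 2.73% ± 0.205 (n = 4) in LPS libraries, where it stood at 2.49%, 2.97%, 2.66% and 2.81%. The groups did not overlap, and the log2 ratio was 1.02 within day 1 and 0.94 within day 2. Macrophages of the brain's borders moved less, from 1.33%, 1.70%, 1.49% and 1.79% to 1.87%, 2.41%, 2.08% and 2.13%, again without overlap. Choroid plexus cells went the other way, from 4.41% ± 0.335 to 3.50% ± 0.211 (n = 4 each), at 3.30%, 3.57%, 3.36% and 3.77% after LPS and without overlap. They were not alone in this. The pericyte sum went from 39625 to 50439 CPM in 3 saline libraries to 31864 to 39107 CPM after LPS, without overlap. Leptomeningeal fibroblasts, not tested, went from 29813 to 34961 CPM to 15770 to 25300 CPM. In endothelial cells (21875 to 26487, then 15615 to 22118 CPM) and ependymal cells (20182 to 25565, then 18174 to 21169 CPM) the means fell, with overlap.
After LPS the order of the classes changed with it. NKs, choroid plexus cells and pericytes led, microglia stood directly below them without overlap, and neutrophils remained last. Microglia, at 24877 to 29660 CPM, overlapped the monocytes that came next in the mean, at 22956 to 30336 CPM.

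The rise in microglia ran through every complex (edgeR's quasi-likelihood test on counts summed per library, scaled by TMM, Benjamini-Hochberg adjusted over all genes tested, called at an adjusted p under 0.05). Of 93 members tested, 85 were higher and 2 lower, beside 30.0% higher and 34.8% lower among all 20235 genes, and their median log2 fold change was 1.63. The median of all genes was -0.19, and with scaling to total counts it was -0.94, a shift of -0.76. A change of scaling shifts all genes nearly alike. The members' distance from the median of all genes, 1.82 with either scaling, is therefore no check of the scaling. Of 93 members, 89 lay above that median. With total counts 73 members were higher and 8 lower, beside 14% and 67.3% of all genes.

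Complex I was higher in 44 of 45 members tested, with medians of 1.62 over the accessory subunits, 1.42 over the core subunits and 0.87 over the assembly factors. *Ndufa12*, an accessory subunit added late in assembly, had the largest rise of all members. It was at 68.6, 91.0, 72.4 and 89.1 CPM in saline and at 293, 343, 327 and 347 CPM in LPS libraries, a log2 fold change of 2.77 (SE 0.177, edgeR adjusted p = 1.282e-08). *Ndufb6*, of the membrane arm, went from 52.4 to 71.6 CPM to 182 to 233 CPM (2.50, SE 0.176). *Ndufaf4*, an assembly factor, went from 18.8 to 23.6 CPM to 50.6 to 71.4 CPM (2.23, SE 0.129), whereas *Ndufaf7*, the methyltransferase that acts early in assembly, was not called (0.07 with TMM, and -0.68 and called lower with total counts). For *Ndufa12*, *Ndufb6* and *Ndufaf4* the saline and LPS libraries did not overlap.

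Complex II, the link to the citric acid cycle, held *Sdha*, which was called in opposite directions under the 2 scalings. *Sdhb*, the iron-sulfur subunit, was at 119, 148, 137 and 156 CPM in saline and at 226, 272, 234 and 252 CPM after LPS (1.56, SE 0.158). The membrane anchors *Sdhc* (1.38) and *Sdhd* (1.54) were higher as well. *Sdha*, the flavoprotein that oxidizes succinate, stood at 118, 121, 116 and 121 CPM in saline and at 92.7, 103, 104 and 91.8 CPM after LPS, so that it was called higher with TMM (0.46, edgeR adjusted p = 0.002864) and lower with total counts (-0.28, edgeR adjusted p = 0.01627). No saline library of *Sdha* overlapped the LPS libraries.

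In complex III all 8 members were higher (median 1.72). *Uqcrq*, a small subunit at the cytochrome b core, went from 163, 209, 181 and 228 CPM to 592, 728, 632 and 639 CPM (2.47, SE 0.183, edgeR adjusted p = 5.314e-08), without overlap. In complex V all 17 members were higher (median 1.81). *Atp5g1*, a gene for the ring subunit c that turns with the proton flow, went from 147, 201, 166 and 205 CPM to 500, 635, 493 and 570 CPM (2.36, SE 0.195). *Atp5b*, the catalytic beta subunit, went from 232 to 304 CPM to 609 to 855 CPM (2.11, SE 0.181). *Atp5l* (2.27), *Atp5mpl* (2.23), *Atp5md* (2.16) and *Atp5g3* (2.10) completed the members of complex V among the 12 largest rises.

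Complex IV was mixed. Of its 19 members tested, 12 were higher and 2 lower, and the 7 tested tissue-restricted copies had a median of -0.35. *Cox5a* and *Cox5b*, nuclear subunits that surround the catalytic core, rose by 2.36 (SE 0.149) and 2.13 (SE 0.151) on the log2 scale, *Cox5a* from 106, 114, 106 and 121 CPM to 314, 354, 339 and 360 CPM. *Cox4i1*, the common copy of subunit IV, went from 494 to 704 CPM to 1092 to 1315 CPM (1.76). *Cox7a2l*, a relative of subunit VIIa known as a factor of supercomplex assembly and known to be shortened in C57BL/6 mice, stood apart. It was at 262, 276, 261 and 284 CPM in saline and at 158, 169, 141 and 162 CPM in LPS libraries without overlap, not called with TMM (-0.03, edgeR adjusted p = 0.8475) and called lower with total counts (-0.78).

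**Figure D2:**
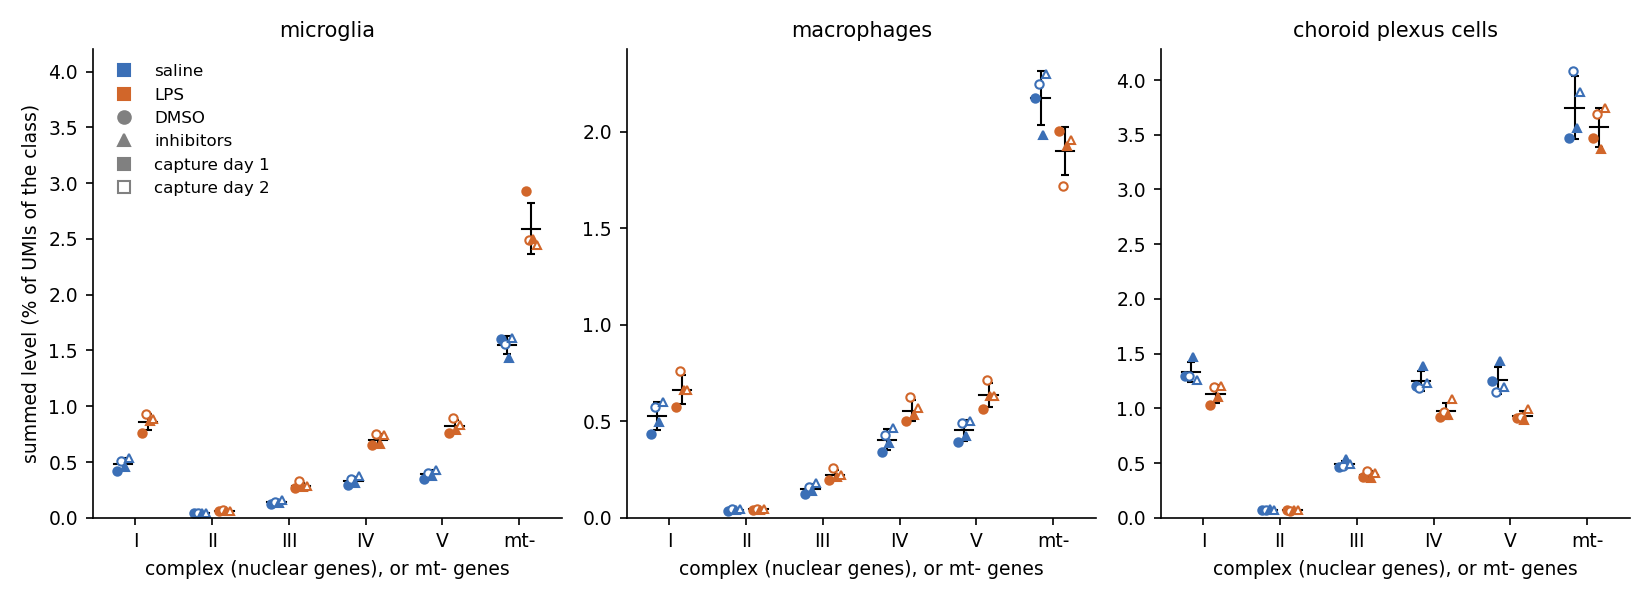
Summed level of the nuclear genes of complexes I to V and of the 13 mt- genes (y axes, percent of the UMIs of the class) in microglia, macrophages and choroid plexus cells (3 panels), 1 point per library with mean and SD. In microglia complex V went from 0.352% to 0.431% in saline to 0.758% to 0.893% after LPS, and the LPS points lie above the saline points for each complex.

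The LPS libraries held more cells that the markers did not place or placed barely. Cells with too few markers made up 2.38% to 3.45% of the saline and 15.5% to 18.6% of the LPS cells, and microglia just at the marker limit 0.453% to 0.998% and 18.4% to 23.2%. In the unplaced cells the members summed to 1.60% to 2.61% in saline and 2.46% to 2.99% after LPS. Their part in the microglial result was not tested.

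Among the other immune classes, macrophages had 62 of 87 members higher and 2 lower after LPS (background 24.7% and 26.0%), with a median of 0.78. Relative to all genes the median was 0.83 with TMM and 0.84 with total counts, a match that the nearly equal shift of all genes entails. With total counts 49 members were higher and 8 lower (15% and 41.7% of all genes). All 62 were also higher in microglia, a pair of calls that 22.4% of the 9757 genes tested in both showed. *Uqcrq* led again, from 154, 230, 157 and 253 CPM to 467, 627, 504 and 544 CPM (1.77, SE 0.198, edgeR adjusted p = 9.191e-07), followed by *Ndufb6* (1.66) and the accessory subunit *Ndufa11* (1.57). *Cox7a2l* fell in macrophages by 0.69 on the log2 scale (edgeR adjusted p = 0.0002411), from 342, 327, 335 and 378 CPM to 164, 161, 178 and 176 CPM. By complex, 27 of 45 members were higher in complex I, 3 of 4 in complex II, 7 of 8 in complex III, 10 of 13 in complex IV and 15 of 17 in complex V.

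Monocytes had 21 of 87 members higher and 4 lower (13.7% and 13.1%), with a median of 0.38. *Ndufa12* (1.27), *Atp5g3* (1.15) and *Ndufaf4* (1.09) led, and *Ndufa12* went from 60.5, 139, 43.0 and 93.2 CPM to 180, 226, 172 and 191 CPM. *Cox6b2*, *Ndufaf7* (-1.67) and *Cox7a2l* (-0.85) fell. Without the cells that carried progenitor genes, 1.88% to 13.4% of saline and 4.07% to 5.28% of LPS monocytes, 55 members were higher and 3 lower, beside 17.7% and 16.6% of all genes. With capture day as a block 42 were higher, beside 16.9% of all genes. With at least 1500 UMIs per cell 11 of 87 were higher, near the 11.9% of all genes. The count of the main fit fell to between 9 and 12 when any 1 of 5 libraries was left out, namely the DMSO and the inhibitor saline library of day 1, the DMSO LPS library of day 2, and the inhibitor LPS libraries of days 1 and 2.

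Dendritic cells had 14 of 67 higher and 1 lower (21.9% and 19.1%). The leading genes of this class included *H2-Ab1*, *Plbd1*, *Cd209a* and *Mgl2* in saline, and *Ccl17*, *Ccr7*, *Ccl22* and *Fabp5* after LPS. The groups may thus hold unlike kinds of dendritic cells, and the part of this in the values was not tested. *Ndufc2*, an accessory subunit of complex I, was at 52.5, 170 and 188 CPM in the 3 saline libraries with enough cells and at 367, 744, 371 and 604 CPM after LPS (1.90, SE 0.423). *Sdhc* (1.86) and *Uqcr10* (1.73), a small subunit of complex III, followed, and *Cox7a2l* fell by 1.47 on the log2 scale. Neutrophils had 7 of 80 higher and 0 lower (12.2% and 12.8%), with *Ndufs3* (1.17), a core subunit, *Uqcrq* (1.17) and *Cox5b* (1.10) ahead. The share of members called higher in dendritic cells was close to that of all genes, and in neutrophils it was under it. The medians were 0.53 and 0.31, with 51 of 67 and 62 of 80 members fitted above 0. In dendritic cells the sum went from 13664 to 18050 CPM in saline to 20664 to 25425 CPM after LPS. There a gate of 2 markers gave 23 of 75 higher (22% of all genes) and DESeq2 7 of 67 (16.6%). In neutrophils the fit without a filter on low counts gave 20 of 93 (5.21%), and a limit of 1500 UMIs 3 of 77 (11%). With capture day as a block, 17 of 80 were higher in neutrophils, beside 15.5% of all genes. Without the DMSO saline library of day 1 dendritic cells gave 7 higher, and without the DMSO LPS library of day 1 neutrophils gave 17. Leaving out the DMSO LPS library of day 2, the DMSO saline library of day 1, either inhibitor LPS library or the inhibitor saline library of day 1 gave 2 to 4 in neutrophils.

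In lymphocytes the shares of members called higher were near or under those of all genes. B-cells had 5 of 82 members higher and 0 lower (7.14% and 4.92%), T-cells 6 of 78 and 0 (8.38% and 8.2%), and NKs 8 of 78 and 3 (10.3% and 11.9%). In B-cells the median was 0.31, with 63 of 82 members fitted above 0. There, with the inhibitor LPS library of day 1 left out for too few cells, *Ndufaf4* (1.58) and *Uqcrq* (1.21) led. In T-cells *Sdhd* was at 71.6, 40.1, 52.0 and 52.1 CPM in saline and at 91.5, 90.2, 97.9 and 112 CPM after LPS (0.95), ahead of the core subunit *Ndufv2* (0.87). In NKs *Ndufa12* (1.17) and *Ndufv1* (1.00), the subunit that binds NADH, were higher, and *Cox7a2l* (-0.71) and *Ndufa13* (-0.69) lower. With capture day as a block 10 of 78 were higher in T-cells, beside 9.55% of all genes. In NKs 12 of 78 were then higher, beside 11.8%, and in B-cells 6 of 82, beside 7.6%. These counts were small and moved with single libraries, in that leaving out 1 library gave 1 to 8 higher in B-cells, 1 to 7 in T-cells and 4 to 10 in NKs. The inhibitor saline library of day 1 and the inhibitor LPS library of day 2 each moved the count in all 3 classes by over 1.5 times, the DMSO LPS library of day 2 did so in B-cells and NKs, the DMSO saline library of day 2 in B-cells, the inhibitor saline library of day 2 in NKs, and the DMSO LPS library of day 1 in T-cells.

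**Figure D3:**
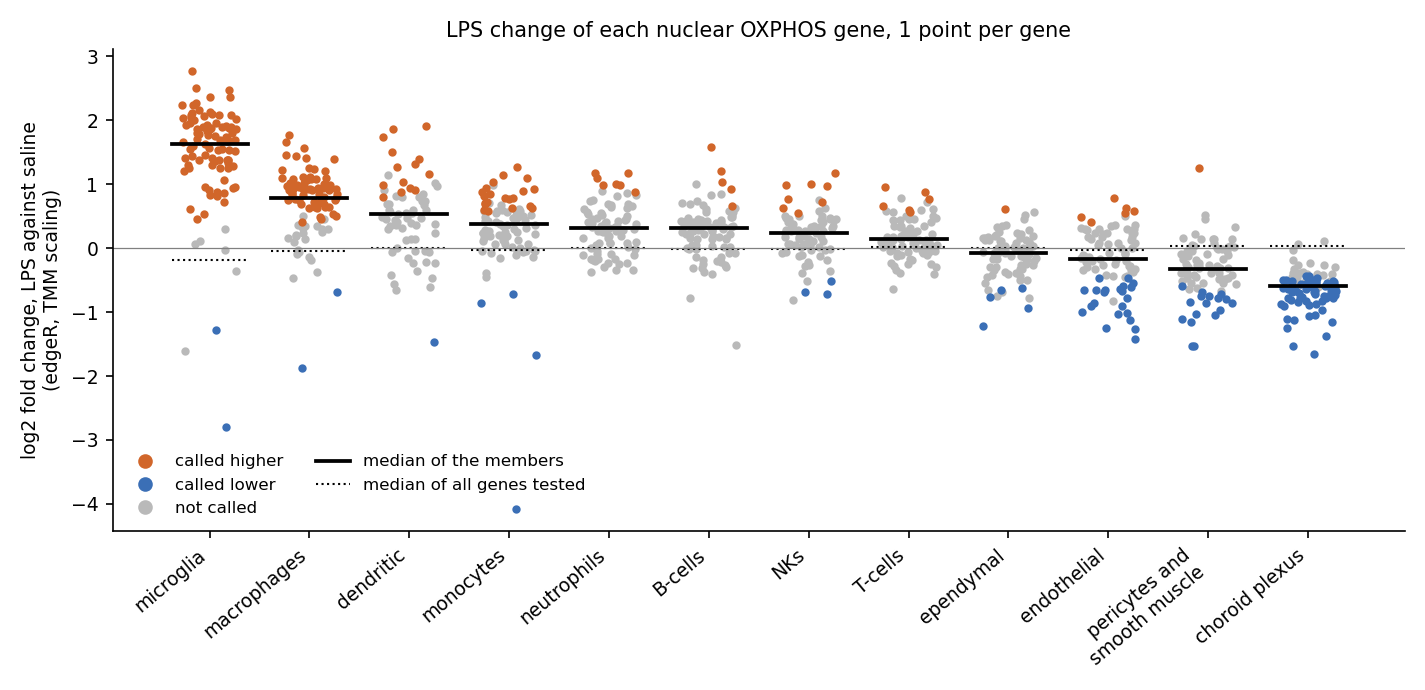
Log2 fold change of LPS against saline (y axis, edgeR with TMM scaling) of each member tested in each class (x axis), 1 point per gene, coloured where called higher or lower at an adjusted p under 0.05, with solid lines at the members' median and dotted lines at the median of all genes. The median runs from 1.63 in microglia to -0.59 in choroid plexus cells, and with total counts these medians are 0.88 and -0.24.

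The choroid plexus, the epithelium that makes cerebrospinal fluid, showed the opposite of microglia. Its class held 552 saline and 296 LPS cells. Of 86 members tested 61 were lower and 0 higher after LPS (13.8% and 12.8% of all 4143 genes), with a median of -0.59. With total counts 21 were lower and 0 higher, beside 5.19% and 27% of all genes. When cells with up to 10% mitochondrial UMIs were kept, 53 of 87 were lower, beside 15% of all genes. The fall in the summed level was then smaller. The saline mean was 38340 in place of 44050 CPM, and the LPS mean 35030 in place of 35020 CPM. The median of all genes differed by 0.37 between the scalings. Relative to it the members stood at -0.62 with TMM and -0.64 with total counts, a near match that the nearly equal shift of all genes entails. *Atp5g1* fell most, from 1264, 1367, 1716 and 1311 CPM to 481, 664, 528 and 560 CPM (-1.66, SE 0.163, edgeR adjusted p = 6.945e-10). *Cox6b2*, *Cox7a1* (-1.38), *Ndufs5* (-1.25) and *Ndufb6* (-1.15) were lower too. *Ndufb6* thus moved down in choroid plexus cells and up in microglia, in which it was also higher with total counts.

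By complex, 24 of 42 members of complex I, 2 of 4 of complex II, 7 of 8 of complex III, 13 of 15 of complex IV and 15 of 17 of complex V were lower in choroid plexus cells. The 7 core subunits of complex I gave 1 call, with a median of -0.39. Of the 86 members tested in both, 59 (68.6%) were called higher in microglia and lower in choroid plexus cells, beside 8.14% of the 4139 genes tested in both. With total counts it was 19 members (22.1%, beside 1.84%).

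Endothelial cells had 22 of 84 members lower and 6 higher (22.2% and 21.7%). The share lower was close to that of all genes, and the share higher was under it. With total counts 34 were lower and 0 higher, beside 29.4% and 15.9% of all genes, and the median of all genes shifted by -0.20. *Ndufv3*, an accessory subunit of the NADH-binding arm, was at 187, 265, 201 and 267 CPM in saline and at 66.4, 107, 60.6 and 70.5 CPM after LPS, without overlap (-1.42, SE 0.207, edgeR adjusted p = 1.193e-05). The assembly factor *Ndufaf3* (-1.26) and *Ndufa13* (-1.25), an accessory subunit also known as GRIM-19, were lower. *Ndufaf4* (0.78), *Ndufb6* (0.63) and *Uqcrfs1* (0.59), the iron-sulfur subunit of complex III, were higher with TMM and were not called with total counts. Without the inhibitor LPS library of day 2, 0 members were higher, and without the DMSO LPS library of day 2, 1 was. Leaving out either DMSO saline library or the inhibitor saline library of day 1 gave 2 to 3, and with capture day as a block 12 were higher, beside 24.3% of all genes. In complex I, 10 of 30 accessory subunits were lower, and 0 of the 7 core subunits were called.

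Pericytes had 17 of 79 members lower and 1 higher (11.7% and 10.7%). *Ndufa13* went from 559, 763 and 1055 CPM to 267, 263, 271 and 225 CPM (-1.53, SE 0.255). DESeq2 called 7 lower (5.62% of all genes) and the fit without a filter on low counts 6 of 91 (1.13%). When cells with up to 10% mitochondrial UMIs were kept, 50 of 84 members were lower (16.1%). Leaving out the DMSO saline library of day 1 or the inhibitor saline or LPS library of day 2 gave 9 to 11 lower. Ependymal cells, which line the ventricles, had 5 of 78 lower and 1 higher (13.3% and 13.1%), with *Ndufaf2* (-1.22) and *Atp5c1* (-0.93) lower and *Cox4i1* (0.61) higher. Without the inhibitor LPS library of day 2 the counts were 0 and 0, with capture day as a block 8 were lower (15.4% of all genes), and each of the 7 libraries, when left out, moved at least 1 of these small counts by over 1.5 times.

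Of the 67 members tested in all 12 classes, 56 (83.6%) were called higher in at least 1 class and lower in at least 1 other, beside 43.9% of the 838 genes so tested. The members that follow are examples chosen after their values were seen. *Uqcrq* was higher after LPS in 9 of 12 classes and lower in choroid plexus cells alone (-0.64), and in endothelial and choroid plexus cells it was not called with total counts. *Ndufs3* was higher in 6 of 12 and lower in 0, and *Ndufa11* and *Uqcr10* were each higher in 6 and lower in 1. *Cox5b* was higher in 5 of 12 and lower in 1. *Ndufaf4* was higher in 5 of the 6 classes in which it could be tested and lower in 1. *Cox7a2l* was higher in 0 and lower in 5 of 12 classes, namely dendritic cells (-1.47), endothelial cells (-1.12), monocytes, NKs and macrophages. *Ndufa13* was lower in 4 of 12 and higher in microglia (0.82), where it was not called with total counts.

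Some subunits of complex IV exist as copies that are known from muscle, lung, testis or hypoxic cells, and the levels of these differed widely between classes. *Cox4i2*, a copy of subunit IV known from lung and from cells that sense oxygen, gave 282 UMIs (607 CPM) in 152 saline pericytes and smooth muscle cells. In the 164 LPS cells of this joint class it gave 88 (193 CPM), against 0.927 and 0.597 CPM in saline and LPS microglia. In pericytes it was at 471, 583 and 620 CPM in saline and at 189, 291, 130 and 182 CPM after LPS, without overlap (-1.53, SE 0.269, edgeR adjusted p = 5.375e-05). *Ndufa4l2*, a copy of *Ndufa4* known as a hypoxia target, was at 971, 1442 and 1221 CPM and then at 525, 858, 436 and 450 CPM in the same cells (-1.15, SE 0.252). Both are also known as marker genes of brain pericytes, whereas the class holds smooth muscle cells as well. *Acta2*, *Myl9*, *Tagln* and *Rgs5* led it in both groups. *Vtn*, *Higd1b*, *Rgs4*, *Myh11* and *Ndufa4l2* were among its leading genes in saline only. The part of a changed mix of cells in these falls was not tested.

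*Cox7a1*, the heart and muscle copy of subunit VIIa, and *Cox8b*, that of subunit VIII, were seen chiefly in choroid plexus cells. *Cox7a1* stood at 107 CPM there in saline and 51.1 CPM after LPS, and *Cox8b* at 183 and 158 CPM. *Cox6b2*, the testis copy of subunit VIb, was at 292, 247, 233 and 259 CPM in saline choroid plexus cells and at 133, 112, 92.8 and 109 CPM after LPS, without overlap (-1.53, SE 0.187). *Cox6a2*, the heart and muscle copy of subunit VIa, was the sole restricted copy called higher in microglia in the main fit. It went from 9.83, 12.1, 10.8 and 13.7 CPM to 20.5, 26.3, 22.1 and 29.0 CPM (1.83, SE 0.182). After subtraction of free RNA *Cox4i2*, at the low microglial level given above, was called higher as well (1.17, SE 0.3785, edgeR adjusted p = 0.01502). In endothelial cells *Cox6a2* gave 0 UMIs in either group, where 3 UMIs would be 0.774 CPM in saline and 1.10 CPM after LPS. *Cox8c*, the testis copy of subunit VIII, gave 4 UMIs in saline microglia and 1 after LPS.

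With TMM, *Ndufa4l2* and *Cox6b2* were the members called lower in microglia. With total counts 8 members were called lower, *Sdha*, *Cox7a2l* and *Ndufaf7* among them. *Ndufa4l2* and *Cox6b2* were also present in free RNA, the RNA of barcodes with 1 to 99 UMIs. *Ndufa4l2* gave 128 UMIs in all saline microglia and 18 after LPS (-2.80, SE 0.341, edgeR adjusted p = 6.797e-06), while free RNA held 10.5 to 16.9 CPM of it in saline and 1.69 to 3.85 CPM in LPS libraries. *Cox6b2* went in microglia from 3.72, 9.30, 3.79 and 9.03 CPM to 1.39, 1.86, 1.65 and 1.57 CPM, while its free RNA went from 20.3 to 92.1 CPM in saline to 7.78 to 10.6 CPM. *Cox6b2* was lower in the 4 classes in which it was tested, macrophages (-1.87) and monocytes (-4.08) included. After subtraction of free RNA the microglial changes were -2.87 and -0.84. By haemoglobin, free RNA made up 3.67% to 4.42% of microglial UMIs in saline and 1.79% to 2.17% after LPS, and its remaining part in these results was not tested.

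**Figure D4:**
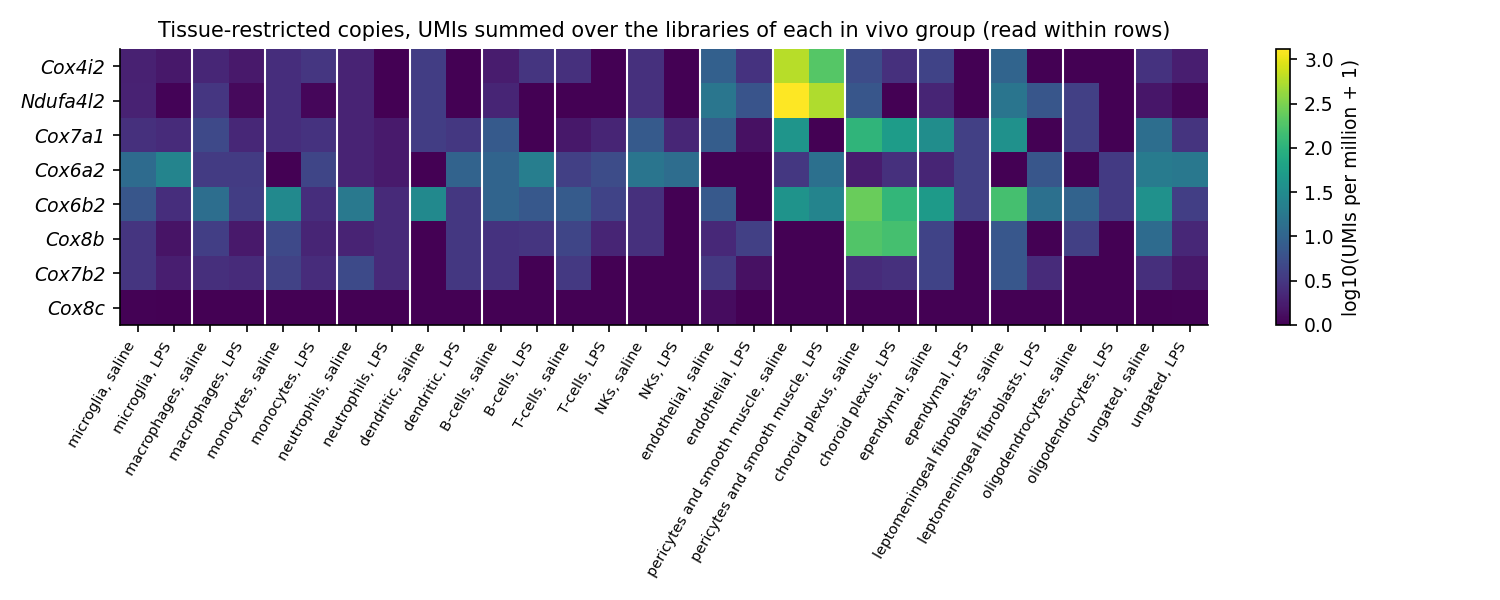
Level of 8 tissue-restricted copies (rows) in each class and in vivo group (columns), as log10 of CPM plus 1 with UMIs summed over libraries, to be read within rows. *Cox4i2* (607 CPM) and *Ndufa4l2* (1301 CPM) peak in saline pericytes and smooth muscle cells, and *Cox6a2* is highest in LPS microglia at 24.6 CPM.

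The mitochondrial genome did not follow the nuclear genes in all classes. Cells were limited to under 5% mitochondrial UMIs, which caps every value given here. In microglia the 13 mt- genes summed to 1.60%, 1.56%, 1.44% and 1.61% in saline and to 2.93%, 2.49%, 2.50% and 2.44% after LPS, and 12 of 13 were higher (median 1.21) beside 30.0% of all genes, and 9 with total counts beside 14%. *mt-Nd1*, a core subunit of complex I, led with 2.00 (SE 0.183), and *mt-Nd2* was lowest among those called at 0.82. In macrophages 1 of 12 was higher and 1 lower (24.7% and 26.0% of all genes), with sums of 2.18%, 2.25%, 1.98% and 2.30% in saline and 2.00%, 1.72%, 1.93% and 1.95% after LPS. In endothelial cells the sums went from 2.82%, 2.72%, 2.42% and 2.86% to 1.13%, 1.48%, 1.32% and 1.71%, and 10 of 12 were lower (median -0.84) beside 22.2% of all genes.

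The number of mt- UMIs per nuclear oxidative phosphorylation UMI therefore moved. It went from 1.64, 1.32, 1.33 and 1.28 to 1.07, 0.714, 0.926 and 0.917 in macrophages, and from 1.23, 1.03, 1.11 and 1.08 to 0.723, 0.668, 0.735 and 0.901 in endothelial cells. Monocytes (mean 0.634 to 0.402), NKs (0.661 to 0.467) and T-cells (1.08 to 0.899) were lower after LPS without overlap as well. Without progenitor-gene cells the monocyte means were 0.640 and 0.368, also without overlap. In choroid plexus cells the ratio was higher without overlap, at 0.808, 0.976, 0.726 and 0.916 in saline and 1.05, 1.03, 1.00 and 0.994 after LPS. In microglia, where both sums were higher, the ratios of the groups overlapped (1.13 ± 0.122 and 0.958 ± 0.153, SD, n = 4 each). Between libraries of the same day and dissociation treatment the microglial ratio was lower after LPS in each of 4 pairs, from 1.31, 1.07, 1.09 and 1.04 to 1.18, 0.840, 0.942 and 0.871.

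**Figure D5:**
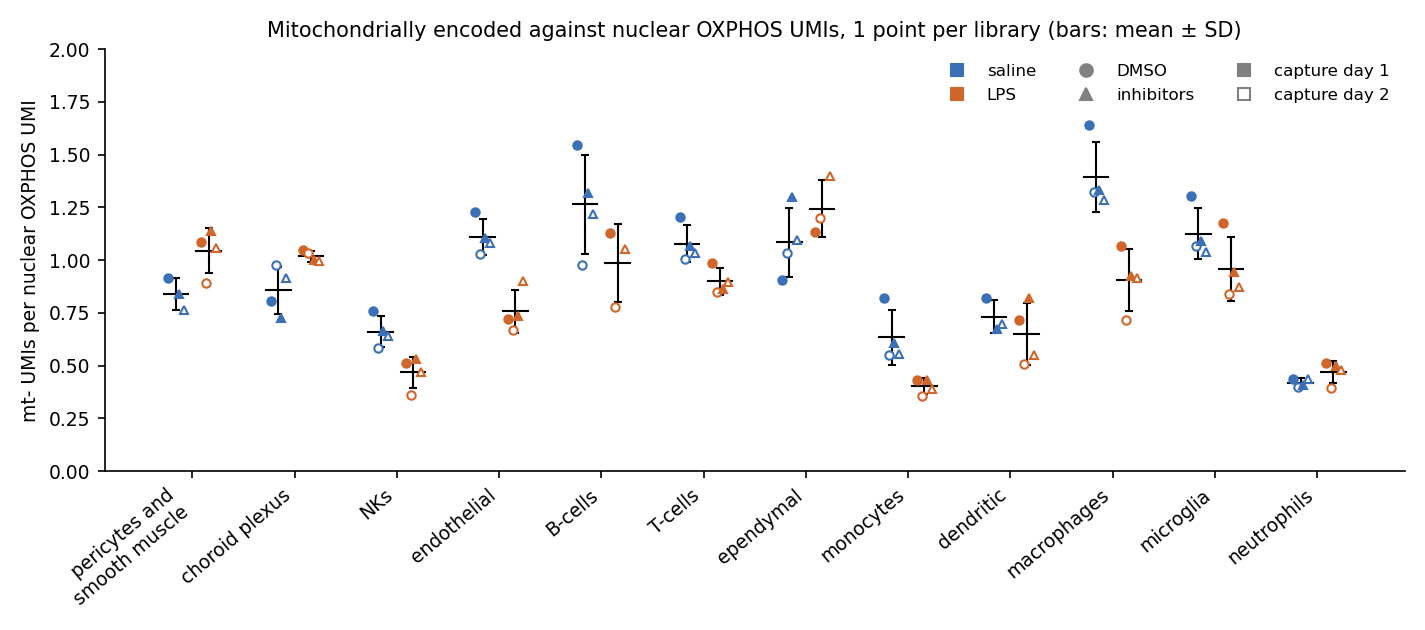
UMIs of the 13 mt- genes per UMI of the 95 nuclear genes (y axis) in each class (x axis), 1 point per library with mean and SD for saline and LPS. LPS points lie below all saline points in macrophages, where the means are 1.39 and 0.906, and above them in choroid plexus cells, where the means are 0.856 and 1.02.

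One mt- gene differed by capture day. *mt-Co1*, the catalytic subunit of complex IV, stood in microglia at 1924 and 1314 CPM in the day 1 saline libraries and at 200 and 216 CPM in those of day 2, and after LPS at 2198 and 1754 CPM on day 1 and at 323 and 340 CPM on day 2. Day 1 was 6.67 times day 2 in the mean, and the days did not overlap. In NKs the ratio was 6.08, in endothelial cells 4.93, in macrophages 4.37 and in T-cells 4.13, again without overlap. It was lower in choroid plexus cells (2.71) and monocytes (2.70), also without overlap, and in neutrophils (1.66) the days overlapped, at 282 to 833 CPM on day 1 and 180 to 546 CPM on day 2. The other mt- genes of microglia lay between -0.31 and 0.25 (log2 of day 2 over day 1), and the 85 members at 10 CPM or more between -0.17 and 0.44, with a median of 0.19. Without *mt-Co1* the mt- genes summed to 1.46% ± 0.128 in saline and 2.48% ± 0.165 in LPS microglia (SD, n = 4 each), without overlap. In macrophages the sums without it were 1.99% ± 0.266 and 1.75% ± 0.099, and overlapped. Each day had 4 mice, and in microglia the days lay farther apart than the mice of either day.

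Set against microglia in the same saline libraries, the members were higher in most classes. In choroid plexus cells 86 of 93 were higher and 1 lower (19.1% and 23.5% of all genes), with a median of 2.17. NKs had 73 higher and 0 lower (13.4% and 13.9%), pericytes 69 and 0 (10.9% and 18.3%), B-cells 65 and 2 (16% and 24.7%), T-cells 65 and 4 (15.3% and 23.6%) and endothelial cells 60 and 7 (22.3% and 27.2%). Monocytes had 36 higher and 8 lower (16.5% and 23.8%), macrophages 33 and 25 (15.2% and 21.7%), and dendritic cells 8 and 8 (6.35% and 9.4%). Ependymal cells had 22 higher and 12 lower (24.3% and 30.1%), but 73 and 3 with total counts (34.6% and 17.4%). Neutrophils had more members lower than higher, 46 and 7 (24.8% and 15.6%). The smaller counts moved with single libraries. Macrophages gave 16 lower without the DMSO or the inhibitor LPS library of day 1, dendritic cells 1 lower and monocytes 5 without the inhibitor saline library of day 1, and endothelial cells 3 lower without that library. Monocytes gave 18 lower and neutrophils 3 higher without the DMSO saline library of day 2, and ependymal cells 19 to 20 lower without the DMSO LPS library of either day or the inhibitor LPS library of day 2. Without progenitor-gene cells monocytes gave 18 higher and 35 lower (15.2% and 24.7%). Members too low to be tested within a class could enter these comparisons through the counts of microglia. *Cox6a2* could be tested within microglia alone, so its place below microglia in other classes is no test. Within dendritic cells 67 members could be tested and within neutrophils 80, in place of 93 here.

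The LPS change itself was set against that of microglia. The change was called lower for 73 of 93 members in macrophages (15.5% of all genes), 67 in monocytes (10.9%), 56 in neutrophils (8.81%), 69 in B-cells (7.93%), 75 in T-cells (10.5%) and 68 in NKs (7.08%). It was called lower for 86 in endothelial cells (22.0%), 73 of 92 in pericytes (4.23%), 82 in choroid plexus cells (11.5%) and 84 in ependymal cells (13%), and for 17 in dendritic cells (4.57%), in which 76 of 93 were fitted below 0. With total counts the number was 46 in monocytes (6.66% of all genes), 36 in neutrophils (5.35%), 11 in dendritic cells (3.88%), 45 in B-cells (3.77%) and 44 in NKs (3.59%). Without progenitor-gene cells it was 34 in monocytes (9.06%). All these comparisons share the microglia of the same libraries. As in the comparisons in saline, genes too low to be tested within a class entered through the counts of microglia. For pericytes 16920 genes were tested here, against 1976 within that class, and 92 members against 79. For dendritic cells it was 16791 genes against 1588. The shares of all genes thus include many such genes, and more so than the members do. Among the members called, the largest differences in choroid plexus cells were those of *Atp5g1* (-3.87, SE 0.184), *Ndufb6* (-3.50, SE 0.208) and *Ndufa12* (-3.27). The change was called higher for 1 member each in dendritic cells (*Ndufc2*, 3.79%), endothelial cells (*Cox8b*, 10.5%), pericytes (*Ndufa4l2*, 4.39%) and choroid plexus cells (*Cox8b*, 10.5%). For the last 2 this was a smaller fall, not a larger rise. After subtraction of free RNA *Ndufa4l2* was at -1.22 in pericytes and -2.87 in microglia. *Cox8b* was at -0.45 in choroid plexus cells and -1.61 in microglia, called in neither. Within endothelial cells *Cox8b* was too low to be tested.

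The inhibitors used during dissociation left no call on these genes. Between DMSO and inhibitor libraries, edgeR's quasi-likelihood test called 0 members in each of the 12 classes, and DESeq2 called 0 as well. At an unadjusted p under 0.05 the counts were 6 in monocytes, 3 in dendritic cells, 1 each in macrophages, pericytes and choroid plexus cells and 0 in the others, beside 1.87% to 5.16% of all genes at that threshold over the 12 classes and 4.68% in monocytes. The members' median log2 fold change of DMSO against inhibitors was -0.09 in microglia, beside -0.02 for all genes, and 87 of 93 members were fitted below 0. Over the 12 classes the members' median ran from -0.21 in dendritic cells to 0.29 in monocytes, in which 84 of 87 members were fitted above 0. Among all genes, 0.331% were called higher with DMSO in microglia, 0.4% in macrophages, 0.0561% in monocytes, 0.16% in neutrophils, 0.567% in dendritic cells and 0.0209% in B-cells. The shares were 0.0876% in T-cells, 0.0459% in NKs, 0.0452% in endothelial cells, 0.202% in pericytes, 0.0241% in choroid plexus cells and 0.0585% in ependymal cells. Called lower were 0.063% in dendritic cells, 0.0241% in choroid plexus cells, 0.0292% in ependymal cells and 0.0% in the other classes. The interaction of LPS with DMSO or inhibitors gave 0 calls among the members in each class. Among all genes it gave 0.0198% higher and 0.00494% lower in microglia, 0.00936% higher in monocytes, 0.0209% lower in B-cells and 0.0226% lower in endothelial cells.

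Other lists of energy metabolism were read against the shares of all genes in microglia (30.0% higher and 34.8% lower). Among 44 assembly factors and carriers outside the naming rule, 34 were higher and 1 lower, with cytochrome c, *Cycs*, at 2.54 (SE 0.147) and the complex IV assembly factor *Coa7* at 2.66. With total counts, under which 14% of all genes were higher and 67.3% lower, the same list gave 15 higher and 16 lower. Of 16 citric acid cycle genes 15 were higher and 0 lower (9 and 1 with total counts), *Idh3a*, of isocitrate dehydrogenase, at 2.28. Of 18 glycolysis genes 13 were higher and 3 lower (9 and 4), with *Gapdh* at 2.48 and *Pfkfb3*, which makes the activator of phosphofructokinase, at 2.71. All 6 carriers of ADP, phosphate and the outer membrane were higher, the ADP/ATP carrier *Slc25a5* at 2.24. Of 16 regulators 7 were higher and 6 lower (2 and 9), among them the coactivators *Ppargc1b* (2.08) and *Ppargc1a* (-0.56) and the factor *Nrf1* (-0.61).

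In macrophages, where 24.7% of all genes were higher and 26.0% lower, 10 of 16 citric acid cycle genes were higher and 2 lower, and 13 of 17 glycolysis genes higher and 1 lower. In choroid plexus cells (12.8% of all genes higher and 13.8% lower) 8 of 16 citric acid cycle genes were lower and 2 higher (2 and 3 with total counts), with *Idh3a* at -0.89, and *Cycs* was at -1.63. In endothelial cells (21.7% and 22.2%) 6 of 16 glycolysis genes were higher and 4 lower, and 12 of 32 assembly factors and carriers were lower and 3 higher.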

How the data were processed

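The authors deposited raw UMI counts per gene and barcode for each library, with no selection of cells. Per the methods they were made with PIPseeker and STAR on GRCm39 (written GRCmm39 there) from paired-end PIPseq reads, and the submitters' processing notes name Seurat 4. The authors' normalized values, clusters and cell names were not used here. Only gene symbols were taken from the tables, since the reference at hand was GRCm38, whose RefSeq promoter windows supplied the sequences shown.

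Cells with 800 to under 45000 UMIs, 250 to under 6500 genes and under 5% mt- UMIs were kept. A marker counted in a cell when its UMIs exceeded what 5% of free RNA (barcodes with up to 99 UMIs) would give (Poisson p under 0.01), and 3 markers of 1 class placed the cell. Cells with markers of a second class, above 0.5 of the share of the first, were left out as possible doublets, and no doublet caller was run. Counts were summed per library and class with at least 20 cells, leaving out the DMSO saline library of day 2 in dendritic cells and pericytes and the inhibitor LPS library of day 1 in B-cells and ependymal cells. They were tested with edgeR 4.0.16 in R 4.3.3 (filterByExpr, TMM, robust quasi-likelihood fit, LPS and DMSO as terms), with Benjamini-Hochberg adjustment over all genes of a class and a call at an adjusted p under 0.05. Classes were compared with microglia in 1 fit with the library as a term. The standard error is the fold change over the square root of F. The code was tested on simulated counts. Python 3.11.15, numpy 2.4.6, pandas 2.3.3 and scipy 1.17.1 made the sums, and DESeq2 1.42.0 was an alternative.

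Each member was taken by its symbol alone, but the name rule and the lists were set with earlier results of these data known. Genes were named by a rule: in microglia up to 12 called each way with the largest change, in other classes and class comparisons up to 3 each way, and always the Sdh genes, the mt- genes and the subunits with a restricted copy and that copy. *Ndufaf7*, *Cox5b* and *Cox4i1* where they stand outside it, the genes followed across classes, those whose promoters are shown and those of the other lists were chosen after their values were seen. Libraries of 1 capture day deviated together (correlations of 0.157 to 0.659 over 6 pairs and 20190 genes), so the day pairs them. The main fit nevertheless had no term for the day, and the fit with the day as a block is given as an alternative. UMIs count molecules, and the shares cover no error of capture. The single values of 1 member are not reported here.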

Additional observations from a re-analysis of the deposited data

Results flagged for a closer look

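In groups of 4 libraries, 3 of the 40 summed levels tested had a library far from the other 3 by Dixon's test, which chance gives in about 1 of 20 groups. In choroid plexus cells the 95 genes summed to 49030 CPM in the saline inhibitor library of day 1, against 41810 to 42915 CPM in the other saline libraries. In microglia the mt- genes summed to 29290 CPM in the LPS DMSO library of day 1, where *mt-Co1* was also highest. In ependymal cells they summed to 18290 CPM in the saline DMSO library of day 1.

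The difference between the LPS change of a class and that of microglia, tested as a term of 1 fit over both, was called lower for 73 members in macrophages, 67 in monocytes, 56 in neutrophils, 17 in dendritic cells, 69 in B-cells, 75 in T-cells and 68 in NKs. It was called lower for 86 in endothelial cells, 73 in pericytes and smooth muscle cells, 82 in choroid plexus cells and 84 in ependymal cells. It was called higher for 1 member in each of dendritic cells, endothelial cells, pericytes and smooth muscle cells, and choroid plexus cells. That of endothelial cells, *Cox8b*, was too low to be tested within that class.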

How the results depend on the processing

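Of 1687 counts and summed levels recomputed under an alternative, 1525 stayed within their limits, and of 4641 values of single genes 4241 kept direction and call, 301 lost the call, 98 gained it and 1 reversed, *Sdha* in microglia (-0.28 with total counts). The cause of the changes was not tested. Percentages in brackets are shares of all genes. With total counts in place of TMM, members lower after LPS were 8 in microglia (67.3%), 8 in macrophages (41.7%) and 34 in endothelial cells (29.4%). In choroid plexus cells 21 were lower (5.19%) and in ependymal cells 13 (19%). Members higher were 3 in B-cells (4.23%), 0 in endothelial (15.9%) and 0 in ependymal cells (9.39%). Against saline microglia, total counts gave 5 lower in monocytes, 14 higher and 3 lower in dendritic cells, 9 lower in T-cells, 1 lower in NKs, 1 lower in endothelial cells, 2 lower in choroid plexus cells, and 73 higher and 3 lower in ependymal cells. For the difference of the LPS change, total counts gave 1 higher in each of monocytes, neutrophils and T-cells, 36 lower in neutrophils, 11 in dendritic cells, 45 in B-cells and 44 in NKs, and 2 higher in endothelial cells, 2 in pericytes and 4 in choroid plexus cells. RLE size factors gave 1 lower in microglia (29.2%).

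Without a filter on low counts, 1 member was lower after LPS in microglia (21.9% of all genes). In monocytes 44 of 93 were higher (8.78%) and 2 lower (4.1%), and in neutrophils 20 of 93 were higher (5.21%) and 1 lower (2.7%). In B-cells 2 were higher (1.1%), in T-cells 2 (1.53%), and in NKs 0 were lower (1.24%). In pericytes 6 were lower (1.13%) and in choroid plexus cells 39 (2.29%). In ependymal cells 0 were higher (1.63%) and 2 lower (2.16%). Against saline microglia the fit without this filter gave 23 higher and 18 lower in monocytes. It gave 1 lower in T-cells, 2 lower in choroid plexus cells and 22 lower in ependymal cells, for which shares of all genes are not given. DESeq2 gave 7 higher in dendritic cells (16.6% of all genes), 2 in T-cells (5.81%), 4 in NKs (6.61%) and 3 in endothelial cells (18.8%). It gave 7 lower in pericytes (5.62%), and 0 higher (10.5%) and 0 lower (7.89%) in ependymal cells. With the replicate block, that is the capture day as a pairing term, 42 members were higher in monocytes (16.9%) and 17 in neutrophils (15.5%). In T-cells 10 were higher (9.55%), in endothelial cells 12 (24.3%), and in ependymal cells 8 were lower (15.4%). The block moved no other count by over 1.5 times.

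With at least 1500 UMIs per cell, 11 of 87 were higher in monocytes (11.9% of all genes), near the share of all genes. In neutrophils 3 of 77 were higher (11%), and in ependymal cells 2 of 81 were higher (9.86%) and 0 lower (9.21%). With a limit of 10% mt- UMIs, 50 were lower in pericytes (16.1% of all genes). The saline level was 50720 in place of 44810 CPM in pericytes and 38340 in place of 44050 CPM in choroid plexus cells. The LPS level was 34810 in place of 34260 CPM in pericytes and 35030 in place of 35020 CPM in choroid plexus cells. Subtraction of free RNA gave 4 higher in neutrophils (11.4%) and 0 in ependymal cells (11.1%), and 1 lower in B-cells and 2 in T-cells against saline microglia. A stricter gate gave 3 higher in pericytes (12.5%). Of 2 alternatives added after seeing the data, a gate of 2 markers gave 11 of 80 higher in neutrophils (13%) and 23 of 75 in dendritic cells (22%). The other, leaving out progenitor-gene cells, gave 55 of 87 higher after LPS in monocytes (17.7%) at a saline level of 17140 CPM. It gave 18 higher and 35 lower against saline microglia and 34 with a lower LPS change.

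Leaving out 1 library at a time gave, for LPS, 1 to 3 lower in microglia, 9 to 31 higher in monocytes, 2 to 17 in neutrophils, 7 to 16 in dendritic cells, 1 to 8 in B-cells, 1 to 7 higher and 0 to 1 lower in T-cells, 4 to 10 and 1 to 4 in NKs, 0 to 9 higher in endothelial cells, 9 to 18 lower in pericytes, and 0 to 2 higher and 0 to 6 lower in ependymal cells. Against saline microglia it gave 16 to 24 lower in macrophages, 5 to 18 in monocytes, 1 to 11 in dendritic cells, 1 to 2 in B-cells, 1 to 3 in T-cells, 0 to 1 in NKs, 3 to 8 in endothelial cells, 1 to 2 in choroid plexus cells and 9 to 20 in ependymal cells, and 3 to 8 higher in neutrophils. For the difference of the LPS change, counts called higher ran from 0 to 1 in monocytes, dendritic cells and choroid plexus cells, 0 to 2 in endothelial cells and 1 to 2 in pericytes. Shares of all genes are not given for these fits, so the ranges show only how the counts moved. Some classes had few cells, such as dendritic cells (88 saline and 159 LPS cells), and the part of this in the calls was not tested.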
